A study of Homo sapiens and Mus musculus with 56 samples.

Results

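The genes of sterol efflux and oxysterol metabolism were followed across 5 human glioblastoma lines given V-4084, a small-molecule inhibitor of the receptor tyrosine kinase MET, or vehicle. The members were listed by name: ABCA1, ABCG1, APOE, MYLIP, NR1H2, NR1H3, CH25H, CYP7B1 and CYP27A1, with the mouse genes taken by the same symbol in mouse case. Of the 9 members, 8 were measured on each platform, among 18417 human and 19938 mouse genes, each by the only probe set that names that gene alone. No probe set names NR1H2 alone on either platform, and it was not analysed here. The list was drawn up with results of these arrays known, and CH25H was chosen by its measured V-4084 responses, which were opposite in tumours of different lines. CH25H is therefore described without a test, and tests are given for the other 7 members.

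By their labels, human arrays held cultured cells of SF295, U118, U87M2, DBM2 and U251M2, and they are called cultured cells below on that ground. The labels give 7 days with V-4084 from a 0.01 M stock in DMSO, or with DMSO as vehicle (the final concentration in culture: not given in the sources used here). Mouse arrays held subcutaneous flank tumours grown from 500000 cells of the same lines in nude mice, which lack most T cells. Those mice received V-4084 at 30 mg/kg for 7 days, or its vehicle of methylcellulose and Tween 80. Each group had 3 arrays, except 2 in each SF295 group on human arrays, 2 in SF295 vehicle tumours and 2 in U251M2 V-4084 tumours. The labels do not state that arrays of a group came from separate cultures or animals, so p-values measure the spread between arrays, which may be technical. A tumour of this kind holds human cancer cells and mouse host cells, and whether human RNA bound to the mouse probe sets was not tested. Whether the human arrays held tumour RNA, or mouse RNA bound to their probe sets, was not tested either.

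ABCA1 and ABCG1 are membrane transporters that load cholesterol and phospholipid onto lipoprotein particles, and APOE is the main apolipoprotein that carries these lipids in the brain. The nuclear receptors LXRα (NR1H3) and LXRβ (NR1H2) bind oxysterols and switch on ABCA1, ABCG1, APOE and MYLIP, whose product marks lipoprotein receptors for breakdown. CH25H and CYP27A1 make oxysterols by adding a hydroxyl group to the side chain of cholesterol, and CYP7B1 further hydroxylates such oxysterols on the way to bile acids. Macrophages and astrocytes are well-known sites of this efflux system.

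Promoters of 3 human members are shown. ABCA1 and MYLIP passed the test on treatment in U87M2 cells, and CH25H is the member whose mouse gene, Ch25h, had opposite responses in tumours. No mouse promoter is shown, so the CH25H window is not that of the gene with those responses. Each sequence is the 250 bases before the start site in RefSeq GRCh38.p14, read 5′ to 3′ on the strand of the gene, at chr9:104928156-104928405 (minus strand) for ABCA1, chr6:16128836-16129085 (plus strand) for MYLIP and chr10:89207318-89207567 (minus strand) for CH25H.
ABCA1: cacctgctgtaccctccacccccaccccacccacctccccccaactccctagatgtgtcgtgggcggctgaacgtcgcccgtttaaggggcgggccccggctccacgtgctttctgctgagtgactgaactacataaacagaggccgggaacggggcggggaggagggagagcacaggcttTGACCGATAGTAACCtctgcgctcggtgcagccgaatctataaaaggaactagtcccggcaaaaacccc
MYLIP: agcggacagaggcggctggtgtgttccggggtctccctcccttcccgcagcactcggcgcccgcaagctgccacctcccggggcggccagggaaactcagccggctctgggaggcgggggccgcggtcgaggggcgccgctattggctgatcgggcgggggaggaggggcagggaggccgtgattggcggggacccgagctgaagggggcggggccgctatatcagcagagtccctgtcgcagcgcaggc
CH25H: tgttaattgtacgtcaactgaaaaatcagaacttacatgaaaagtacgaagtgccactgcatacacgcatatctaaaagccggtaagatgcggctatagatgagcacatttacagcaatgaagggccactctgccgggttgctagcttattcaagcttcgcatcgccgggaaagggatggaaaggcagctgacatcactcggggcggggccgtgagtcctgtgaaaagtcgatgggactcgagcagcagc
Capitals mark a repeat of the kind bound by LXR with its partner RXR, searched on both strands as 2 copies of GGTNA with 5 bases of any kind between them. It lay from −69 to −55 relative to the ABCA1 start site, on the strand opposite to the gene, and the same letters occurred in 187 of 35116 promoter windows of the same length (0.533%). The ABCA1 element is textbook knowledge and the letters were written with it known. A stricter repeat, 2 copies of AGGTCA with 4 bases between them, occurred in 5 of the 35116 windows (0.014%). It was in no window of the 7 members whose windows were kept, which are all but ABCG1 and CYP7B1. The GC box GGGCGG, a common binding motif of Sp factors that may overlap other motifs, occurred 3 times in each of the ABCA1 and MYLIP windows and 1 time in that of CH25H, against 42.639% of all windows with any. The AP-1 motif TGANTCA was in none of the windows of these 7 members, against 6.573% of all windows. These letters describe the windows and say nothing of binding in these cells.

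The deposited values were log2 signals after robust multi-array averaging (RMA), with medians per array of 6.63 to 6.87 on human arrays and 6.11 to 6.31 on mouse arrays. A difference is V-4084 minus vehicle on the log2 scale, its error is the standard error (SE) of limma's fit, and a gene is called at a limma p under 0.05 after Benjamini-Hochberg adjustment over all genes of the platform. Groups are described as apart where their arrays do not overlap. The share of all genes with arrays apart is not given here, so this separation is a description and no call. On human arrays, 3 under V-4084 had a narrower range of values than the rest, namely DBM2 replicate 2, U251M2 replicate 1 and SF295 replicate 2. The 3 human DBM2 arrays under V-4084 carry DBM2 in their titles and SF295 in other label fields, and were placed by title. HGF averaged 5.30 in these arrays, against 5.37 in DBM2 cells under vehicle, while SF295 cells read 10.20 under V-4084 and 10.03 under vehicle. The fibroblast list likewise ran from 7.65 to 7.75 in them and from 7.66 to 7.76 in DBM2 cells under vehicle, against 8.89 to 8.95 in SF295 cells under V-4084 and 8.68 to 8.92 under vehicle. These levels match the titles. On mouse arrays 1 array stood apart, SF295 V-4084 replicate 1, with a keratinocyte list mean of 9.13 where the other SF295 arrays read 5.63 to 5.69 under V-4084 and 5.75 to 5.89 under vehicle. MET itself, the gene of the inhibited receptor, averaged 9.54 in U87M2 cells under V-4084 and 10.60 under vehicle (difference −1.06, SE 0.16, adjusted p = 3.13e-05), and no call was made for HGF, its ligand, on either platform. The mean of 7 glial and neural stem markers lay at 9.90 to 10.14 in U251M2 cells and at 6.77 to 7.96 in the other 4 lines. GFAP, SOX2 and PTPRZ1 had group means of 6.504 to 11.55, 5.87 to 11.26 and 4.47 to 11.09, and OLIG2 stayed between 5.38 and 6.12 in every human group, below the platform median of 6.73. The macrophage list was likewise low on human arrays, with 9 of its 12 measured genes below that median. Skeletal muscle markers in U118 under V-4084 averaged 6.78, 7.42 and 6.81 in human replicates 1 to 3. Mouse replicates 1 to 3 read 6.63, 9.99 and 6.55. In DBM2 under V-4084 the means were 6.86, 7.65 and 6.62 on human and 7.76, 10.44 and 6.98 on mouse arrays. In U87M2 under V-4084 the order differed, with 6.74, 6.69 and 6.585 on human and 6.75, 6.71 and 6.97 on mouse arrays. Whether these human arrays held tumour RNA was not tested.

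In cultured cells, the main change was in U87M2: ABCA1 was 1.99-fold and MYLIP 1.48-fold higher under V-4084. They were 2 of the 7 tested members, against 15% of all human genes called in either direction and 5.37% called higher. No member was called in U118 cells (0.755% of all genes were) or in SF295, DBM2 and U251M2 cells, where 0% of genes were called with limma.

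**Figure D1:**
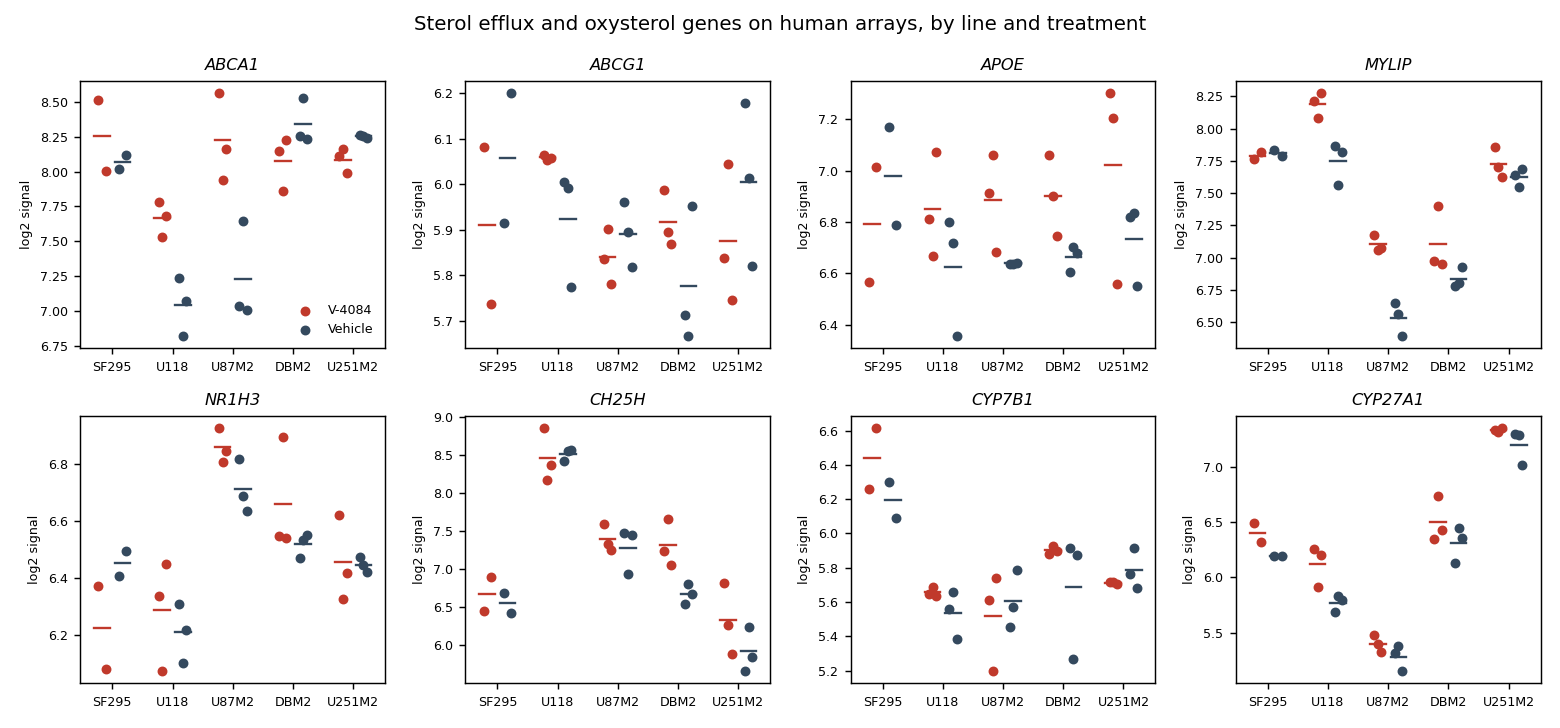
Log2 signal of the 8 measured members on the human arrays, for 5 cultured lines on the horizontal axis; each point is 1 array, bars are group means, and V-4084 stands left of vehicle, with a separate vertical scale per gene that does not start at 0. ABCA1 and MYLIP arrays of U87M2 and U118 under V-4084 lie above all vehicle arrays of their line.

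Among the efflux transporters, ABCA1 read 8.57, 7.94 and 8.17 in U87M2 cells under V-4084, against 7.04, 7.64 and 7.01 under vehicle. Every V-4084 array lay above every vehicle array, although vehicle replicate 2 came close to the lowest V-4084 array. The difference was 1.00 (SE 0.17, 95% interval 0.65 to 1.34, adjusted p = 0.000114).
In U118 cells ABCA1 read 7.78, 7.53 and 7.68 under V-4084, against 7.23, 6.82 and 7.07 under vehicle. The arrays were again apart, and the difference of 0.62 (SE 0.17, adjusted p = 0.0873) missed the threshold over all genes. It passed with array weights (0.73, adjusted p = 8.86e-06), after quantile normalization (0.64, 0.0468), when only U118 arrays were fitted (0.0224) and without the 3 narrow-range arrays (0.0197). It missed with an intensity trend (0.0724), among brighter genes (0.0595), with means over probe sets (0.0867) and without any single U118 array (0.0751 to 0.514).
In DBM2 cells ABCA1 read 8.15, 7.86 and 8.227 under V-4084, against 8.26, 8.53 and 8.233 under vehicle. In U251M2 cells it read 8.11, 8.16 and 7.99 under V-4084, against 8.27, 8.26 and 8.24 under vehicle. In both lines all V-4084 arrays lay below all vehicle arrays, with differences of −0.26 (adjusted p = 0.299) and −0.17 (adjusted p = 0.759) that were not called. SF295 cells, with 2 arrays a group, gave 8.51 and 8.002 under V-4084 against 8.02 and 8.12 under vehicle, and the groups overlapped.
A test of whether the 5 V-4084 effects differ called ABCA1 alone of the 7 members (F test of limma, adjusted p = 0.00273), against 5.53% of all human genes. Without the U87M2 line no member was called in that test, and without DBM2 V-4084 replicate 2 there were 2.

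ABCG1, the partner transporter, was near 6 in every human group: group means ran from 5.84 to 6.06 under V-4084 and from 5.78 to 6.06 under vehicle, all below the platform median. Its differences lay between −0.15 and 0.14, and none was called.

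APOE, the lipid carrier, had group means of 6.79 to 7.02 under V-4084 and 6.63 to 6.98 under vehicle. In U87M2 cells the arrays read 6.92, 7.06 and 6.68 under V-4084, against 6.64, 6.64 and 6.64 under vehicle. The groups did not overlap, and the difference of 0.25 (SE 0.17, adjusted p = 0.39) was not called. With array weights it was 0.35 (adjusted p = 0.0431), and in no other setting was it called (adjusted p = 0.129 to 0.712).

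MYLIP, the ubiquitin ligase that removes lipoprotein receptors, read 7.17, 7.06 and 7.07 in U87M2 cells under V-4084, against 6.65, 6.56 and 6.39 under vehicle. The groups were well apart, with a difference of 0.57 (SE 0.12, 95% interval 0.33 to 0.81, adjusted p = 0.00114).
In U118 cells MYLIP read 8.22, 8.08 and 8.28 under V-4084, against 7.86, 7.56 and 7.82 under vehicle. These arrays did not overlap either, and the difference of 0.44 (SE 0.12, adjusted p = 0.077) was not called. It passed with array weights (adjusted p = 1.73e-06), among brighter genes only (0.0486) and without the 3 narrow-range arrays (0.0061), and missed in the other settings, at 0.0582 in a fit of U118 arrays and 0.072 to 0.526 without any single U118 array.
In DBM2 cells MYLIP read 6.97, 7.40 and 6.95 under V-4084, against 6.78, 6.80 and 6.92 under vehicle, a difference of 0.27 (SE 0.12, adjusted p = 0.153). The high V-4084 array is replicate 2, which has the narrow range. Without it the difference was 0.13 (adjusted p = 0.796), and without V-4084 replicate 3 it was 0.35 (adjusted p = 0.0495). SF295 and U251M2 differed by −0.02 and 0.10, with overlapping arrays.

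Of the receptors, NR1H3 had differences between −0.23 in SF295 cells and 0.15 in U87M2 cells, none called. U87M2 cells read 6.93, 6.81 and 6.85 under V-4084, against 6.82, 6.69 and 6.64 under vehicle, and the groups overlapped narrowly.

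The oxysterol-making enzyme CYP27A1, a mitochondrial sterol hydroxylase, was not called in any line but was higher by 0.12 to 0.35 in all 5. Among the differences of all human genes, these ranked from percentile 67.3 in U87M2 to 98.4 in U118 cells. Its group means lay below the platform median in every line but U251M2. In U118 cells it read 6.26, 5.91 and 6.199 under V-4084, against 5.68, 5.83 and 5.80 under vehicle, a difference of 0.35 (SE 0.12, adjusted p = 0.258). With array weights that difference was 0.46 (adjusted p = 9.1e-06), and in no other setting was it called (adjusted p = 0.0605 to 0.851). CYP7B1, which breaks oxysterols down, had differences of −0.09 to 0.24, none called.

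CH25H, which makes 25-hydroxycholesterol, had its largest human difference in DBM2 cells, given here as a description. It read 7.23, 7.66 and 7.06 under V-4084, against 6.55, 6.81 and 6.68 under vehicle, a difference of 0.64. These groups did not overlap; the highest array is the narrow-range replicate 2, and the other V-4084 arrays also lay above all vehicle arrays. U251M2 cells read 6.83, 6.27 and 5.89 under V-4084 against 5.67, 6.24 and 5.85 under vehicle, with overlap, and a difference of 0.41. In SF295, U87M2 and U118 cells the differences were 0.12, 0.11 and −0.05, with overlapping arrays.

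Averaged over the 5 lines with equal weights, ABCA1 was higher by 0.28 (SE 0.08, adjusted p = 0.0264), MYLIP by 0.27 (SE 0.06, adjusted p = 0.00302) and CYP27A1 by 0.20 (SE 0.06, adjusted p = 0.0239). These were 3 of the 7 tested members, against 11.6% of all human genes called in either direction and 3.38% called higher. The difference was positive in 3 of 5 lines for ABCA1, in 4 of 5 for MYLIP and in 5 of 5 for CYP27A1.
Without U87M2 none of the 3 was called, at 0.10 (adjusted p = 0.454), 0.20 (adjusted p = 0.191) and 0.22 (adjusted p = 0.179). Without DBM2 all 3 were called, and ABCA1 stood at 0.41 (adjusted p = 0.00486). The ABCA1 call also ended without any of 4 single arrays, SF295 vehicle 1 (0.27, adjusted p = 0.0552), SF295 V-4084 1 (0.22, 0.0551), U87M2 vehicle 3 (0.25, 0.052) and U87M2 V-4084 1 (0.24, 0.0504). APOE, at 0.16 (adjusted p = 0.156), was called without U251M2 V-4084 replicate 3 (0.21, adjusted p = 0.0471). CYP7B1, NR1H3 and ABCG1 averaged 0.08, 0.03 and −0.01 (adjusted p = 0.394, 0.71 and 0.905), and CH25H, untested, 0.24.

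In tumours, U87M2 again stood out: the mouse genes Abca1, Apoe, Mylip and Cyp27a1 were higher under V-4084, by 2.48-fold, 1.95-fold, 1.60-fold and 1.66-fold. They were 4 of the 7 tested members, against 3.72% of all mouse genes called in either direction and 2.49% called higher. No member was called in tumours of SF295 or U118 (0.01% of genes each), DBM2 (0%) or U251M2 (0.0401%). In bulk tumours, fewer cells of a type and less RNA per cell cannot be told apart.

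**Figure D2:**
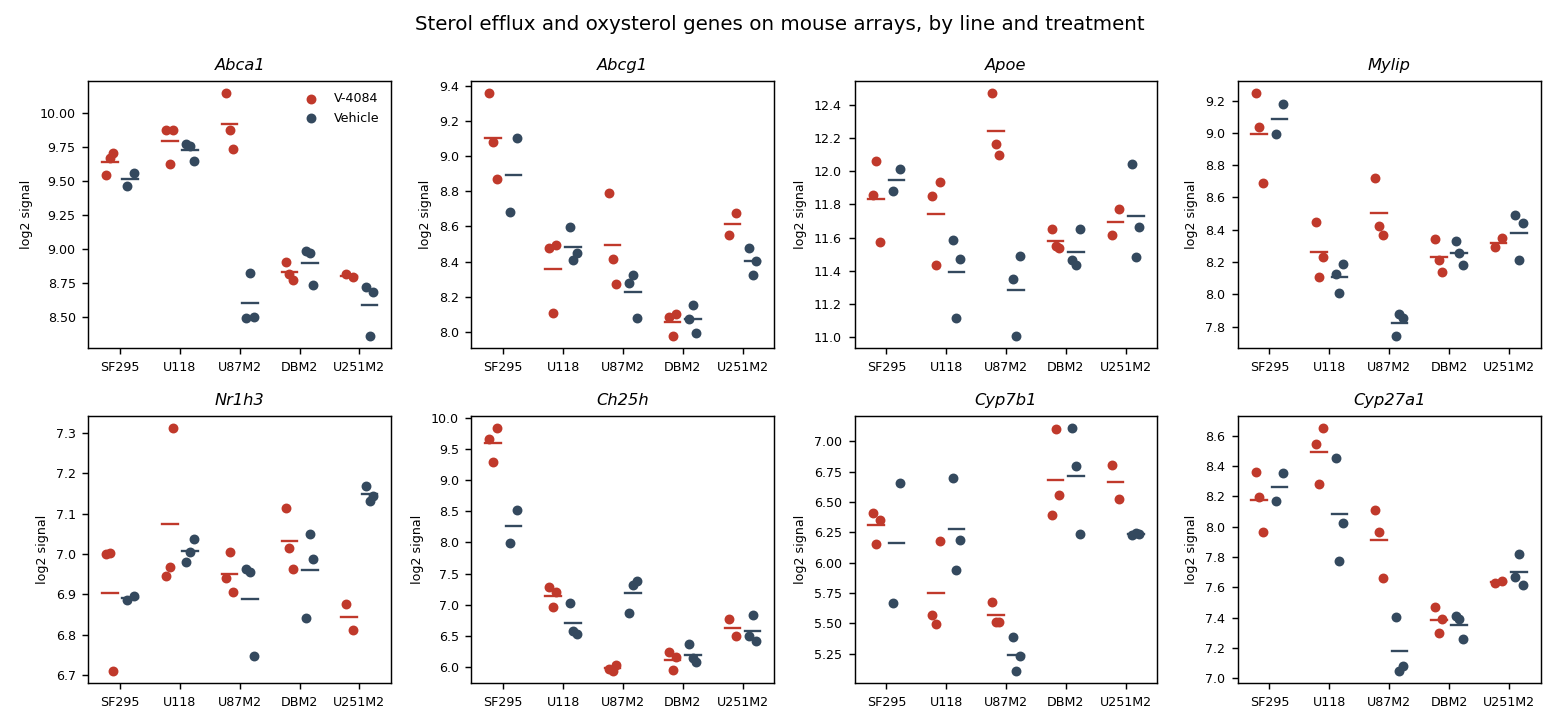
Log2 signal of the 8 measured members on the mouse arrays, for tumours of 5 lines on the horizontal axis; each point is 1 array, bars are group means, and V-4084 stands left of vehicle, with a separate vertical scale per gene that does not start at 0. In U87M2 tumours Abca1 lies between 9.74 and 10.15 under V-4084 and between 8.50 and 8.82 under vehicle, while Ch25h lies lower under V-4084 there and higher in SF295 tumours.

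Abca1, the efflux transporter, read 10.15, 9.87 and 9.74 in U87M2 tumours under V-4084, against 8.50, 8.82 and 8.50 under vehicle. The gap between the groups was far wider than the spread within them, with a difference of 1.31 (SE 0.11, 95% interval 1.08 to 1.55, adjusted p = 3.21e-07). In the other tumours its differences lay between −0.07 in DBM2 and 0.21 in U251M2.
Under V-4084 the U87M2 tumours, at a mean of 9.92, thus read near the U118 and SF295 tumours, at 9.79 and 9.64 under V-4084 and 9.73 and 9.51 under vehicle. The 5 V-4084 effects differed for Abca1 (adjusted p = 0.000152), the only member called in that test, against 0.341% of all mouse genes. Without U87M2 no member was called in it, and without SF295 V-4084 replicate 1 or U118 vehicle replicate 1 there were 2.

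Abcg1 read 8.79, 8.42 and 8.27 in U87M2 tumours under V-4084, against 8.28, 8.32 and 8.08 under vehicle. The arrays overlapped, and the difference of 0.26 (SE 0.13, adjusted p = 0.364) was not called. In SF295 and U251M2 tumours it was 0.21 in each, and in U118 and DBM2 −0.13 and −0.02.

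Apoe, the lipid carrier, read 12.47, 12.16 and 12.10 in U87M2 tumours under V-4084, against 11.35, 11.01 and 11.49 under vehicle. All V-4084 arrays were higher, with a difference of 0.96 (SE 0.16, 95% interval 0.64 to 1.28, adjusted p = 0.000614). U118 tumours read 11.85, 11.44 and 11.94 under V-4084, against 11.58, 11.12 and 11.47 under vehicle. Those groups overlapped, and the difference of 0.35 (SE 0.16, adjusted p = 0.703) was not called.

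Mylip read 8.72, 8.42 and 8.37 in U87M2 tumours under V-4084, against 7.74, 7.88 and 7.85 under vehicle. The groups were apart by 0.68 (SE 0.12, 95% interval 0.43 to 0.93, adjusted p = 0.00139). In the other tumours the differences were −0.10 to 0.15.

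Nr1h3, the receptor, differed by 0.06 in U87M2 tumours and was not called in any line. It read 6.88 and 6.81 in U251M2 tumours under V-4084, against 7.17, 7.13 and 7.14 under vehicle. The groups did not overlap, and the difference was −0.30 (SE 0.11, adjusted p = 0.272).

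Cyp27a1 read 8.11, 7.96 and 7.66 in U87M2 tumours under V-4084, against 7.40, 7.05 and 7.08 under vehicle. All V-4084 arrays were higher, by 0.73 on average (SE 0.14, 95% interval 0.44 to 1.03, adjusted p = 0.00309). U118 tumours differed by 0.41 (SE 0.14, adjusted p = 0.614), with overlapping arrays. Cyp7b1 had the widest intervals of the members: its difference was −0.53 in U118 tumours (95% interval −1.004 to −0.055, adjusted p = 0.691) and 0.43 in U251M2 tumours (95% interval −0.10 to 0.96, adjusted p = 0.462). In U87M2 tumours Cyp7b1 read 5.68, 5.51 and 5.51 under V-4084 against 5.39, 5.11 and 5.24 under vehicle, without overlap and without a call (0.32, adjusted p = 0.579).

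**Figure D3:**
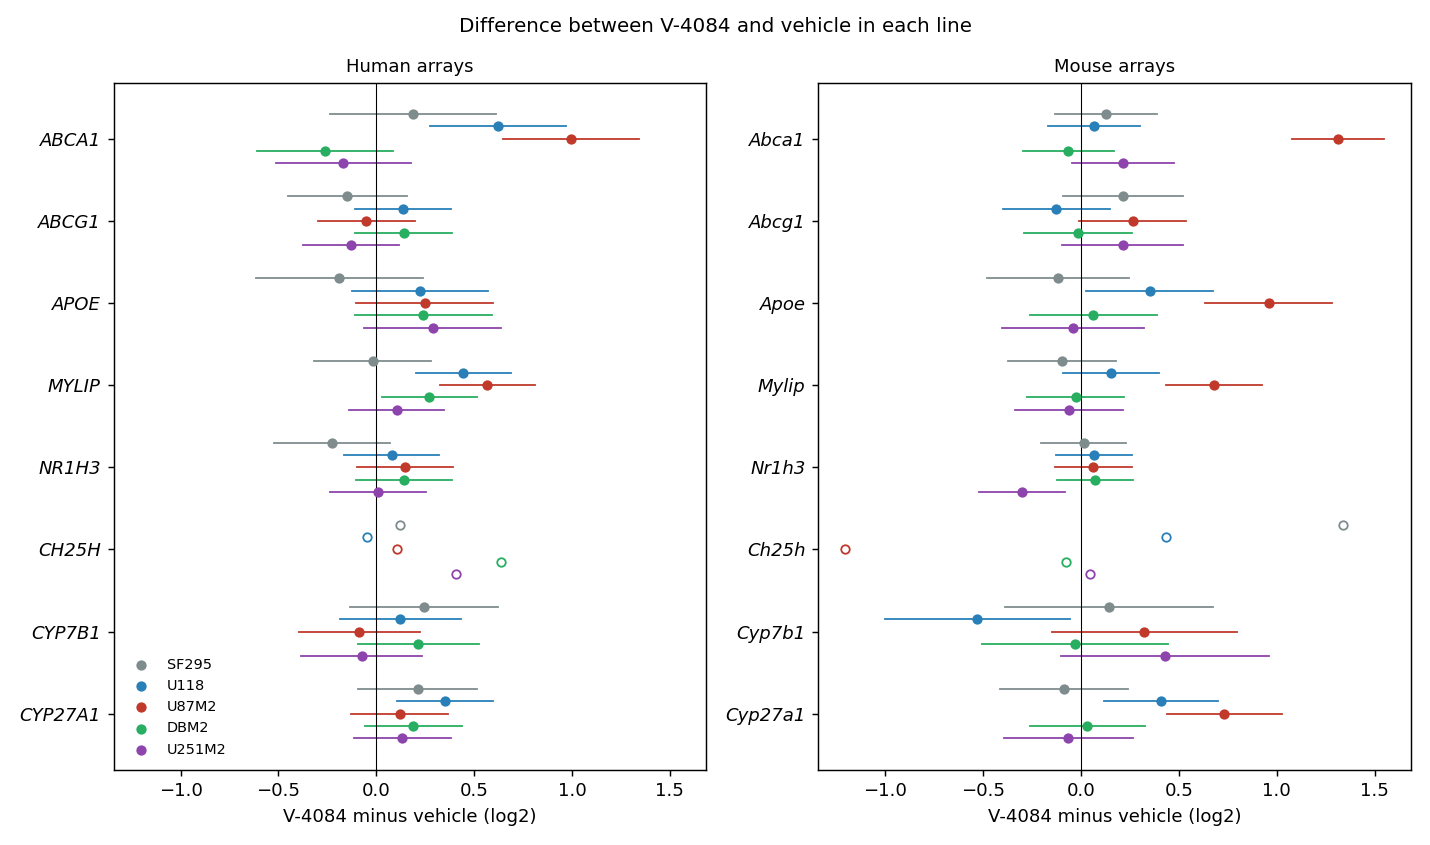
V-4084 minus vehicle on the log2 scale (horizontal axis) for the 8 measured members, human arrays on the left and mouse arrays on the right; points are differences of group means, lines are 95% intervals of the fit, unadjusted, colours are the 5 lines, and open points without a line are CH25H, which was not tested. The intervals of ABCA1 and MYLIP in U87M2 lie above 0 on both platforms, and the open points of Ch25h run from −1.21 in U87M2 to 1.34 in SF295 tumours.

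Ch25h went opposite ways in tumours of different lines, which was part of why it was listed. In SF295 tumours it read 9.65, 9.30 and 9.83 under V-4084, against 7.995 and 8.52 under vehicle, a difference of 1.34 (2.53-fold higher). In U87M2 tumours it read 5.97, 5.95 and 6.04 under V-4084, against 6.87, 7.32 and 7.39 under vehicle, a difference of −1.21 (2.31-fold lower). In both lines the groups were apart, and the V-4084 arrays of U87M2 lay close together, with a standard deviation (SD) of 0.05 over 3 arrays, at a level below the mouse platform median of 6.22.
U118 tumours read 7.28, 6.96 and 7.21 under V-4084, against 7.03, 6.59 and 6.53 under vehicle, a difference of 0.43 with overlap. DBM2 and U251M2 tumours differed by −0.08 and 0.05. In U87M2 tumours Ch25h was thus lower under V-4084 while Cyp27a1, which makes a different oxysterol, was higher.

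Over the 5 tumour lines Abca1 alone was called on average, at 0.33 (SE 0.05, adjusted p = 0.0204), 1 of 7 tested members against 0.0702% of all mouse genes. Its difference was positive in 4 of 5 lines. Without U87M2 it was 0.09 (adjusted p = 0.896), and the call also ended without SF295 vehicle replicate 1 (0.32, adjusted p = 0.0911), U118 V-4084 replicate 3 (0.32, adjusted p = 0.0541) or U251M2 V-4084 replicate 2 (0.33, adjusted p = 0.101). Apoe, Cyp27a1 and Mylip averaged 0.24, 0.21 and 0.13 (adjusted p = 0.252, 0.295 and 0.448). Abcg1, Cyp7b1 and Nr1h3 averaged 0.11, 0.07 and −0.02 (adjusted p = 0.591, 0.88 and 0.934), and Ch25h, untested, 0.11.

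Some macrophage and monocyte markers on the mouse arrays were higher together with these genes in U87M2 tumours. Of 13 such markers, 5 were called higher under V-4084 and none lower, against 2.49% and 1.22% of all mouse genes: Csf1r by 0.53, Adgre1 by 0.45, C1qa by 0.64, C1qb by 0.47 and Tyrobp by 0.67. Cd68 (−0.25), Fcgr1 (−0.15) and Cd163 (−0.03) differed the other way without a call, and the remaining genes were higher without a call. The mean of the list per array ran from 8.76 to 9.25 under V-4084 and from 8.70 to 8.75 under vehicle, without overlap. The median difference of the list was 0.35, against 0.00 over all mouse genes. In SF295 tumours, where Ch25h was higher under V-4084, the list ran from 9.74 to 9.78 under V-4084 and from 9.65 to 9.72 under vehicle, with none of the 13 called. Keratinocyte and skeletal muscle lists had median differences of 0.95 and 0.44 there, with no gene called; replicate 1 under V-4084 read 9.13 and 8.86 for these lists, against 5.63 to 5.89 and 7.05 to 7.53 in the other SF295 arrays. Without that array Ch25h still read 9.30 and 9.83 under V-4084, above both vehicle arrays.
The macrophage list's mean was also added as a covariate, an alternative chosen after seeing the data. In that fit Abca1 in U87M2 tumours was higher by 1.15 (adjusted p = 1.99e-05), Apoe by 0.70 (adjusted p = 0.0225) and Mylip by 0.55 (adjusted p = 0.0361). Cyp27a1, at 0.53 (adjusted p = 0.0717), was not called. The list was measured after treatment, so the fit cannot tell cell content from RNA per cell. The part of macrophages in these results was not tested. With that covariate the average of Abca1 over the lines was 0.25 (adjusted p = 0.295).
Fibroblast markers on mouse arrays ran from 8.83 to 9.37 under V-4084 and from 8.36 to 9.29 under vehicle in U87M2 tumours, with 0 of 9 called. Adipocyte markers ran from 6.71 to 7.56 under V-4084 and from 6.35 to 7.09 under vehicle, with 1 of 6 called higher. Skeletal muscle markers ran from 6.71 to 6.97 under V-4084 and from 6.99 to 8.19 under vehicle, with 0 of 7 called. Of 7 endothelial markers 2 were called higher and 1 lower, of 7 glial and neural stem markers 1 was called lower (2.49% of all genes were higher and 1.22% lower), and none of 4 keratinocyte markers was called. The part of these other cell types in the results was not tested.

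**Figure D4:**
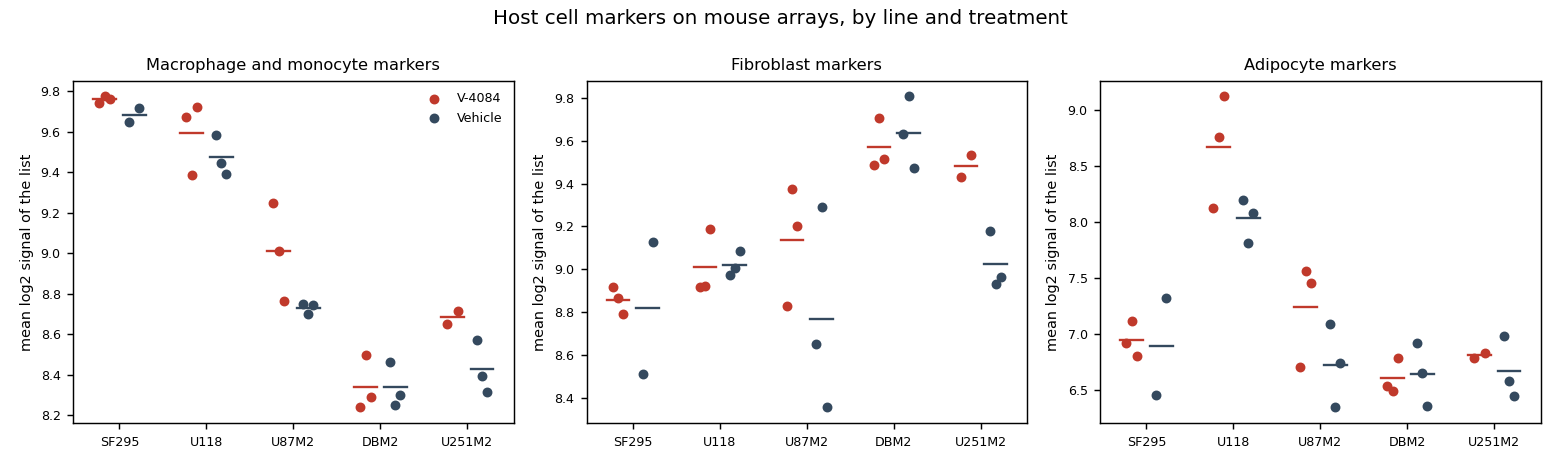
Mean log2 signal of 13 macrophage and monocyte, 9 fibroblast and 6 adipocyte markers per mouse array, for tumours of 5 lines on the horizontal axis; points are arrays, bars are group means, V-4084 stands left of vehicle, and the vertical scales do not start at 0. In U87M2 tumours the macrophage list lies at 8.76 to 9.25 under V-4084 and at 8.70 to 8.75 under vehicle.

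On human arrays the fibroblast list, genes that glioblastoma lines of mesenchymal character also express, moved with ABCA1 and MYLIP in U87M2 cells. All 9 of its genes were called higher, against 5.37% of all human genes. The list mean ran from 10.22 to 10.24 under V-4084 and from 8.98 to 9.37 under vehicle, and the median difference was 0.88 against 0.02 over all human genes. Of the other lists in U87M2 cells, the endothelial one had 1 of 7 genes called higher and 2 lower, the keratinocyte one 1 of 4 higher and the macrophage one 1 of 12 lower, CD68 (−0.78, adjusted p = 1.55e-05), and no adipocyte, skeletal muscle or glial and neural stem marker was called, against 5.37% of all genes higher and 9.62% lower. In U118 cells, where ABCA1 and MYLIP were also higher without a call, 0 of 9 were called. The part of this change in the results for ABCA1 and MYLIP was not tested.

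Vehicle levels differed between lines for 5 of the 7 tested members on human arrays, ABCA1, MYLIP, CYP27A1, NR1H3 and CYP7B1, against 58.4% of all human genes, and for 6 of 7 on mouse arrays, all but Nr1h3, against 54.3% of all mouse genes. In pairs of lines, 25.2% to 36.9% of human genes and 4.29% to 40.1% of mouse genes were called, by the same fit.
ABCA1 under vehicle averaged 8.34 in DBM2, 8.25 in U251M2, 8.07 in SF295, 7.23 in U87M2 and 7.04 in U118 cells (SD 0.01 to 0.36, n = 2 to 3). The step between SF295 and U87M2 was called (0.84, adjusted p = 0.000979), and the other steps between neighbours were not. The 2 lines with the lowest ABCA1 under vehicle, U118 and U87M2, were those with the largest increases under V-4084; both quantities share the vehicle arrays.
MYLIP averaged 7.81 in SF295, 7.75 in U118, 7.62 in U251M2, 6.84 in DBM2 and 6.53 in U87M2 cells, with the last 2 steps called (adjusted p = 5.35e-06 and 0.0489). CYP27A1 averaged 7.20 in U251M2, 6.31 in DBM2, 6.19 in SF295, 5.77 in U118 and 5.28 in U87M2 cells, and all steps but that between DBM2 and SF295 were called.
NR1H3 ran from 6.71 in U87M2 to 6.21 in U118 cells and CYP7B1 from 6.19 in SF295 to 5.53 in U118 cells (adjusted p of these ends = 0.00137 and 0.00333), and no step between neighbours was called. The vehicle means of both genes lay below the human platform median of 6.73 in every line. ABCG1 and APOE showed no called difference between lines (adjusted p = 0.35 and 0.484).
CH25H had the widest range of the members between lines, as a description: 8.52 in U118, 7.29 in U87M2, 6.68 in DBM2, 6.56 in SF295 and 5.92 in U251M2 cells. The arrays of DBM2 and SF295 overlapped, and those of the other neighbours did not.

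In vehicle tumours the order of Abca1 was another: 9.73 in U118, 9.51 in SF295, 8.90 in DBM2, 8.61 in U87M2 and 8.59 in U251M2, where only the step between SF295 and DBM2 was called (0.62, adjusted p = 0.000711). Apoe ran from 11.95 in SF295 to 11.28 in U87M2 tumours (difference 0.66, adjusted p = 0.00619), with no called step between neighbours. Mylip ran from 9.09 in SF295 to 7.82 in U87M2, and the step below SF295 was called (0.71, adjusted p = 0.000368).
Cyp27a1 ran from 8.26 in SF295 to 7.18 in U87M2 (adjusted p = 2e-05), Abcg1 from 8.89 in SF295 to 8.07 in DBM2 (adjusted p = 0.000212) and Cyp7b1 from 6.72 in DBM2 to 5.24 in U87M2 (adjusted p = 9.26e-05). Of the steps between neighbours in these 3 orders, Cyp27a1 from U118 to U251M2 (adjusted p = 0.0395) and Cyp7b1 from SF295 to U87M2 (adjusted p = 0.00872) were called. SF295 tumours, highest in Apoe, Mylip, Cyp27a1 and Abcg1, also had the highest macrophage list, at 9.65 to 9.72 under vehicle, while U87M2 tumours, lowest in Apoe, Mylip, Cyp27a1 and Cyp7b1, had a list of 8.70 to 8.75 and DBM2 tumours the lowest list, at 8.25 to 8.46. U118 tumours, with a list of 9.39 to 9.58, came next below SF295 in Cyp27a1 and Abcg1. In Apoe and Mylip U118 came next above U87M2, and U251M2, with a list of 8.315 to 8.57, next below SF295. The part of macrophages in these levels was not tested.
Ch25h, as a description, was 8.26 in SF295, 7.19 in U87M2, 6.72 in U118, 6.58 in U251M2 and 6.204 in DBM2 tumours; the arrays of SF295 lay above those of all other lines.

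Other genes of sterol handling, 54 measured of 62 listed on each platform, moved both ways in U87M2 cells, with 6 called higher and 9 lower, against 5.37% and 9.62% of all human genes. Among the LXR targets and lipoprotein genes, 1 of 13 was higher and 2 were lower: SCD, a fatty acid desaturase, averaged 8.92 under V-4084 and 10.76 under vehicle (difference −1.84, adjusted p = 5.69e-05), and FASN, the fatty acid synthase, 7.87 under V-4084 and 8.46 under vehicle (−0.59, adjusted p = 0.00983). The gene called higher was APOC1, an apolipoprotein encoded beside APOE (0.49, adjusted p = 0.0454), named after its values were seen. Among 11 oxysterol sensors, INSIG1, which holds the sterol regulator SREBP in place, was lower by 1.32 (8.26 under V-4084 and 9.58 under vehicle, adjusted p = 1.35e-06), while RORA, a nuclear receptor, was higher by 0.71 (adjusted p = 0.0148).
Of 5 partners of LXR, NCOA1, a coactivator, was higher by 0.58 (adjusted p = 0.0152) and RXRA, the dimer partner, by 0.31 (adjusted p = 0.0482). Of 17 genes of sterol uptake, storage and transfer, 2 were higher and 6 lower, among them STARD4, a sterol carrier (−1.48, adjusted p = 2.83e-06), and LRP8, a receptor for APOE that MYLIP marks for breakdown (−1.20, adjusted p = 4.14e-06). Named after their values were seen, VLDLR, the other such receptor (−0.95, adjusted p = 4.71e-05), NPC1, which exports cholesterol from lysosomes (−0.73, adjusted p = 0.000302), NCEH1, a cholesteryl ester hydrolase (−1.47, adjusted p = 3.29e-05), and GRAMD1B, a sterol transfer protein (−0.43, adjusted p = 0.00971), were the further genes called lower. The genes called higher were NPC2, which hands cholesterol to NPC1 (0.87, adjusted p = 0.00134), and CD36, a scavenger receptor (1.15, adjusted p = 0.0279). None of 8 further oxysterol and bile acid enzymes was called. The medians of the 5 lists lay between −0.23 and 0.09, against 0.02 over all human genes.
In U118 cells 3 of the 54 were called, against 0.755% of all genes, all lower: SCD (−1.48, adjusted p = 0.0147), INSIG1 (−0.82, adjusted p = 0.0136) and STARD4 (−0.85, adjusted p = 0.0298). On average over the lines 1 was higher, RORA (0.30, adjusted p = 0.0403), and 8 were lower, against 3.38% and 8.23% of all genes, including SCD (−0.79, adjusted p = 0.000957), STARD4 (−0.43, adjusted p = 0.00334), LRP8 (−0.39, adjusted p = 0.00175), INSIG1 (−0.38, adjusted p = 0.0028) and VLDLR (−0.33, adjusted p = 0.00503).
In U87M2 tumours 6 of the 54 mouse genes were called higher and 2 lower, against 2.49% and 1.22% of all mouse genes. Scarb1, which takes up cholesterol from high-density lipoprotein, averaged 9.21 under V-4084 and 8.08 under vehicle (1.13, adjusted p = 8.1e-05), Npc1 8.87 under V-4084 and 8.34 under vehicle (0.53, adjusted p = 0.00792), and Rnf145, an LXR target in mouse, 8.19 under V-4084 and 7.71 under vehicle (0.49, adjusted p = 0.0148). Ncoa1 was higher by 0.54 (adjusted p = 0.00306), in mouse as in human arrays of this line. Named after their values were seen, Npc2 (0.41, adjusted p = 0.0227) and Nceh1 (0.63, adjusted p = 0.0384) were the other genes called higher, and Lrp8 (−0.34, adjusted p = 0.0119) and Stard4 (−0.43, adjusted p = 0.0295) those called lower. LRP8 and STARD4 were thus called lower on both platforms in U87M2, whereas NPC1 and NCEH1 were called lower in cultured cells and their mouse genes higher in tumours; the platforms were not tested against each other. No listed gene was called in tumours of the other 4 lines.

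Pearson's r over the 28 arrays of a platform was used to find the genes with the most similar pattern, as a description. The arrays share lines and treatments, so the values mix differences between groups with spread within them. With group means taken out, r with the genes below was 0.37 to 0.59 for ABCA1, 0.61 to 0.65 for APOE and 0.29 to 0.54 for CH25H. On mouse arrays it was 0.41 to 0.66 for Abca1, 0.42 to 0.70 for Apoe and 0.10 to 0.53 for Ch25h. For ABCA1 on human arrays these were PTGFRN (r = 0.83), EDIL3 (0.82) and TIAM1 (0.81), and for Abca1 on mouse arrays Itm2b (0.92), Pde7b (0.91) and Wdfy3 (0.91). For APOE they were PANX3 (0.74), HSD3B1 (0.73) and SLC22A12 (0.72), and for Apoe Bach2 (0.73), Mrtfa (0.70) and Mast3 (0.69). For CH25H they were POFUT1 (0.92), NOVA1 (0.92) and RSPO2 (0.91), and for Ch25h Kcnn4 (0.93), Ctsc (0.92) and Tnfrsf11a (0.92).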

How the data were processed

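The authors deposited log2 signals per probe set, made with RMA in Partek per the submitters' processing notes (versions: not given in the sources used here). Arrays have no read depth, so precision rests on how many arrays a group has. Values were used as deposited. Of 33297 human and 35556 mouse probe sets, 19460 and 21789 name 1 gene, 1754 and 1621 name several and 12083 and 12146 name none, by the platform annotation; where a gene had several, the brightest on average was kept. Arrays were grouped by title. Within a platform, group means were fitted with limma 3.58.1 (R 4.3.3; 10 groups, 18 residual degrees of freedom), with contrasts for each line, the equal-weight average, differences between the 5 effects and between vehicle groups. All tests were two-sided, with Benjamini-Hochberg adjustment over all genes of a contrast. The fit was tested on simulated data with 200 changed genes.

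The members and lists were chosen with earlier results of these data known. All members are named in every comparison, MET and HGF once, of each pathway list up to 3 called genes by p in the average and 2 in each line, and 3 similar genes for ABCA1, APOE and CH25H. The lists were 5 of sterol pathway genes and 7 of cell type markers. Alternatives were array weights, renewed quantile normalization, an intensity trend, means over probe sets, a filter on dim genes, own-line fits, a replicate block, and leaving out arrays or lines. Human promoter sequences come from RefSeq GRCh38.p14.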

Additional observations from a re-analysis of the deposited data

Results flagged for a closer look

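The V-4084 effect on ABCA1 differed between the 5 cultured lines (F test of limma, adjusted p = 0.00273), and that on Abca1 between the 5 tumour lines (adjusted p = 0.0001522). For ABCA1 in cultured cells, all V-4084 arrays lay above all vehicle arrays in U87M2 and U118 and below them in DBM2 and U251M2. Only the U87M2 difference was called. Those of U118 (limma, adjusted p = 0.0873), DBM2 (−0.26, adjusted p = 0.299) and U251M2 (−0.17, adjusted p = 0.759) were not. The pairs of lines below were picked by this separation of arrays. The effect of U87M2 exceeded that of DBM2 by 1.26 and that of U251M2 by 1.16 on the log2 scale, and the effect of U118 exceeded them by 0.88 and 0.79. These differences between single pairs of lines were not tested. Ch25h moved opposite ways in tumours, with the effect of SF295 2.54 above that of U87M2, and this difference was not tested because it was part of the choice of the gene. No group had 4 or more arrays, so single arrays were not tested for their distance from the rest of their group.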

How the results depend on the processing

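In U87M2 the count of called members stayed at 2 on human arrays and 4 on mouse arrays without any 1 array, and 3 were called in tumours with the macrophage covariate, an alternative chosen after seeing the data. In U118 cells 0 members were called, against 5 with array weights, 2 without the 3 narrow-range arrays, and 1 each after quantile normalization, among brighter genes (12976 human genes kept) and in a fit of that line's arrays. The shares of all genes called in these and the following alternatives are not given here. The counts alone therefore show nothing particular to the members. The count for differences between effects was 1 on each platform; on human arrays it became 2 with array weights, 2 without the narrow-range arrays and 0 without U87M2, and on mouse arrays 2 with array weights, 2 after quantile normalization and 0 without U87M2. The human average called 3 members, against 0 without U87M2 and 1 with a replicate block; the mouse average called 1, against 0 without U87M2 and 0 with the covariate. Without any 1 array, the counts ran from 0 to 1 in DBM2 cells, 2 to 4 in the human average, 0 to 1 in the mouse average, 1 to 2 for differences between effects on each platform, and 4 to 5 and 5 to 6 for vehicle levels on human and mouse arrays. The cause of these changes was not tested. No called value changed sign: of 231 recomputed values of the 10 called results, 216 kept the call. Of 1220 recomputed values of 74 uncalled results, 61 changed sign and 13 were called. Same-numbered arrays of a line correlated from −0.52 to 0.32 on human arrays (3 of 14 pairs over 0.1) and from −0.35 to 0.30 on mouse arrays (3 of 13). The correlation was highest with the own number in 6 of 14 human and 4 of 13 mouse pairs. Whether the numbers pair arrays is thus not settled by these values. With the replicate block, ABCA1 and CYP27A1 averaged 0.28 (adjusted p = 0.0668) and 0.20 (adjusted p = 0.0506) on human arrays, and neither was called. With 2 or 3 arrays a group, the uncalled differences had 95% intervals within −0.62 to 0.97 on human and −1.004 to 0.96 on mouse arrays.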
